A study of Homo sapiens with 6 samples.

Results

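The ligands of the EGF receptor family were read in MKN28 cells with and without depletion of VPS35. The members are AREG, EGF, EPGN, EREG, NRG1 and TGFA, the 6 ligand genes of this family that have a row among the 426 genes of the authors' deposited table. They were chosen by their presence in that table, and so by the authors' own fold change and adjusted p for shVPS35 against vector. Their group differences are therefore given here as a description, with no test. MKN28 is a gastric cancer line, held by registries to be a derivative of MKN74, and RNA was sequenced from 3 samples that carry a control vector and 3 that carry a short hairpin directed at VPS35 (shVPS35), called biological replicates by the study's design text. The number of hairpins, clones or cultures behind the samples is not stated in the labels, so the spread between samples may be partly technical. VPS35 is the scaffold of retromer, which sorts receptors and transporters out of endosomes. The target itself read 64.4, 64.3 and 67.2 in vector and 12.9, 15.6 and 11.8 in shVPS35 cells.

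Ligands of the EGF family are made as precursors anchored in the membrane, and metalloproteases such as ADAM17 and ADAM10 release the soluble factor. The factors bind receptor tyrosine kinases of the ERBB family, which signal through RAS and ERK. AREG, EGF, EPGN and TGFA act through the EGF receptor, EREG binds both the EGF receptor and ERBB4, and NRG1 binds ERBB3 and ERBB4. Several of the ligand genes are themselves induced by ERK signalling. In the stomach, TGFA is known for its part in mucosal repair and in the restraint of acid secretion.

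Every ligand with a row was lower in shVPS35 cells. The mean left was between 21.8% of the vector level for EPGN and 46.6% for AREG, with a median of 29.8% over the 6 beside 35.9% over all 236 listed genes that fell. On the log2(value + 1) scale their median difference was -1.36, beside -0.84 over the 236 listed genes that fell. Over all 426 listed genes, which include those that rose, it was -0.34. That scale understates changes of low genes. Of the 236, 60 kept a smaller part of their vector level than EPGN, 86 than TGFA and 87 than EGF. The count was 95 for EREG, 100 for NRG1 and 183 for AREG. All 3 vector samples lay above all 3 shVPS35 samples in 6 of 6 ligands, as the groups were separate in 398 of the 426 listed genes (93.4%). For AREG and EGF that separation was lost under 2 of 3 other scalings. Of 16063 genes tested, 236 (1.47%) were called lower in the authors' deposited table, and 2.65% were called in either direction. Since that call chose the members, their count is not read against these shares. Of the 11 genes of the EGF ligand family, BTC, HBEGF, NRG2, NRG3 and NRG4 had no row and are not analysed here. A lower value in these samples can stand for fewer cells that make a transcript or for less of it in each cell, and these cannot be told apart.

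Of the 6 genes, 4 lie on chromosome 4, and EPGN, EREG and AREG stand side by side there in the same orientation. In GENCODE 29 on GRCh38, EPGN spans 74308473 to 74315307, EREG 74365143 to 74388751 and AREG 74445134 to 74455009, all on the plus strand. EGF lies apart on the same chromosome at 109912884 to 110012266, plus strand. TGFA is on chromosome 2 at 70447280 to 70554193 on the minus strand, and NRG1 on another chromosome. The promoters of the 3 adjacent genes are shown because of their position. All 6 members were lower, so that does not set these 3 apart. The sequences are from RefSeq (GRCh38.p14), plus strand, with 250 bases before and 50 after each start. Capitals mark matches to any of 6 short motifs.
EPGN, chr4:74308220-74308519: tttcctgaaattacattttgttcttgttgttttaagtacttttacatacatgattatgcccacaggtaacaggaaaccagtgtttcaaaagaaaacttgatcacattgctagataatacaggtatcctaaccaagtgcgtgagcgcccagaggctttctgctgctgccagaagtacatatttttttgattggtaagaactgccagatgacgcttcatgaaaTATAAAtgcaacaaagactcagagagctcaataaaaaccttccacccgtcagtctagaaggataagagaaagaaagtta
EREG, chr4:74364895-74365194: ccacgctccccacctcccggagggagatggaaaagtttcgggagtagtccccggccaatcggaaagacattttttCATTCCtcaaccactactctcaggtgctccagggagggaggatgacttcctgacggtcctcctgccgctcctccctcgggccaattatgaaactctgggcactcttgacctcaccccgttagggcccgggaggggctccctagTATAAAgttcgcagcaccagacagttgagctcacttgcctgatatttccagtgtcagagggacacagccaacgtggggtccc
AREG, chr4:74444886-74445185: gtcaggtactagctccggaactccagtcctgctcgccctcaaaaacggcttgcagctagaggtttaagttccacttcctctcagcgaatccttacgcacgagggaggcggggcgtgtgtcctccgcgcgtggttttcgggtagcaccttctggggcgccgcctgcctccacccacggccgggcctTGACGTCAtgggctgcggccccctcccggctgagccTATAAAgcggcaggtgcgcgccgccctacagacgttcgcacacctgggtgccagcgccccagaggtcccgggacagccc

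The motifs searched on both strands were TGANTCA (AP-1), TGACGTCA (the cAMP response element), CGGAAG (a core of ETS factors), TATAAA (the TATA box core), GGGANTTCC (NF-kB) and GGAATG (TEAD). TATAAA was found in all 3 promoters shown, starting 29 bases before the RefSeq start in EPGN, 32 before it in EREG and 29 before it in AREG. It was found in 11.5% of all 35116 promoter windows. AREG also held TGACGTCA, found in 1.85% of windows, and EREG held GGAATG on the opposite strand, found in 14.03%. EGF, whose window lies at chr4:109912633-109912932, held TGANTCA 17 bases before its start, a motif of 7.71% of windows. That match overlapped one to GGAATG on the opposite strand. Neither of the 2 windows that RefSeq gives for TGFA held any of the 6 motifs, which says only that these letters are not there. No promoter window of NRG1 was searched. The 3 promoters shown differed widely in base composition, with 37.7% G and C in EPGN, 57.7% in EREG and 66.3% in AREG against a median of 58.7% over all windows.

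The stretch around these 3 genes held other listed genes as well. EPGN ends 49.8 kb before EREG and EREG ends 56.4 kb before AREG, so that the 3 fill 147 kb. From 1 Mb before EPGN to 1 Mb after AREG there are 16 protein-coding genes beside these 3 members, and 2 of the 16 were listed, both lower in shVPS35 cells, where 2.65% of all genes tested were listed. They were the chemokine genes CXCL2 and CXCL8, which encode attractants of neutrophils. The 16 are annotated genes, and whether each was tested is not known, while the genes tested also hold noncoding ones. CXCL2 had 4.01, 4.02 and 3.90 in vector and 1.65, 0.510 and 2.21 in shVPS35 cells. Its 3 vector samples were close together and its shVPS35 samples spread widely below them. CXCL8 had 0.580, 1.19 and 0.440 in vector and 0.0800, 0.140 and 0.180 in shVPS35 cells, low in every sample and without overlap. BTC, another EGF receptor ligand 290 kb beyond AREG, had no row. Within 1 Mb of EGF, TGFA and NRG1 none of the other 13, 27 and 13 protein-coding genes was listed.

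**Figure D1:**
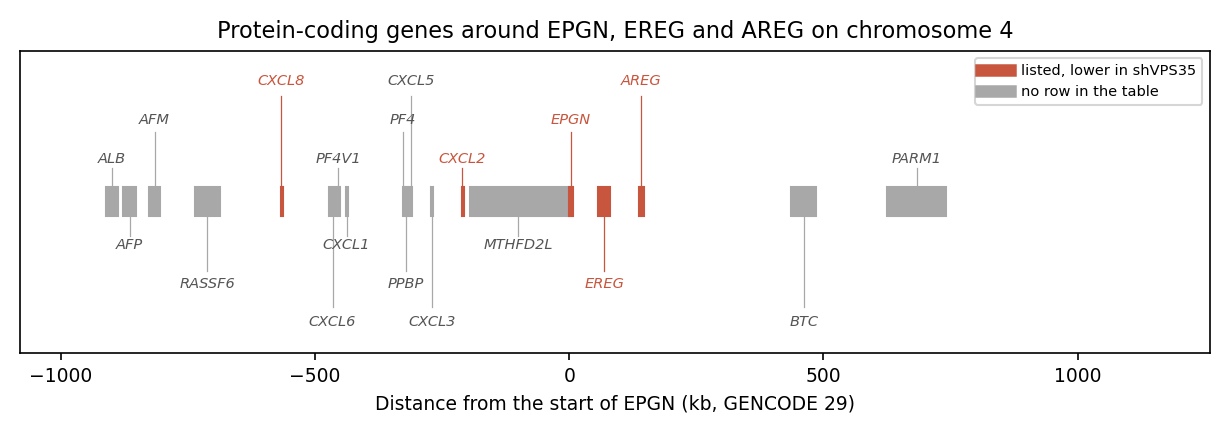
Protein-coding genes of GENCODE 29 around EPGN, drawn to scale by distance in kb from its start, with listed genes in red and genes with no row in grey. EPGN, EREG and AREG lie within 147 kb, CXCL2 ends 209 kb before EPGN, and CXCL8 and CXCL2 were lower in shVPS35 cells, as were the 3 ligands chosen for it.

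EPGN encodes epigen, a ligand of the EGF receptor with low affinity for it. It had the highest values of the 6, at 20.96, 18.9 and 25.96 in vector and 7.33, 3.80 and 3.21 in shVPS35 cells. The groups did not overlap, and shVPS35 sample 1 stood well above the other two of its group. The mean went from 21.9 ± 3.63 to 4.78 ± 2.23 (SD, n = 3 per group), or -2.04 ± 0.33 (SE) on the log2(value + 1) scale. Without shVPS35 sample 1 the mean left was 16.0% of the vector level. The coefficient of variation of EPGN in the shVPS35 samples, 46.6%, was above that of 96 of the 97 listed genes whose shVPS35 mean was within 2-fold of its own, which had a median of 11.99%. In the vector samples it was 16.5%, above 48 of 50 genes of like level.

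EREG, which encodes epiregulin, had the tightest shVPS35 samples of the 6. It had 10.2, 10.8 and 12.4 in vector and 3.46, 3.21 and 3.64 in shVPS35 cells. The lowest vector sample was 2.81 times the highest shVPS35 sample, the widest gap among the 6. The mean went from 11.1 ± 1.11 to 3.44 ± 0.216 (SD, n = 3 per group), or -1.45 ± 0.09 (SE) on the log2(value + 1) scale. Its coefficient of variation in the shVPS35 samples, 6.28%, was above that of only 17 of 110 genes of like level.

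AREG encodes amphiregulin, a heparin-binding ligand, and lies next to EREG. Its values were 2.60, 4.61 and 3.65 in vector and 2.15, 1.45 and 1.46 in shVPS35 cells. The groups came close, since the lowest vector sample was 1.21 times the highest shVPS35 sample. The mean went from 3.62 ± 1.01 to 1.69 ± 0.401 (SD, n = 3 per group), or -0.77 ± 0.22 (SE) on the log2(value + 1) scale. AREG had the smallest relative difference of the 6. Of the 236 listed genes that fell, 183 kept a smaller part of their vector level.

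TGFA, which encodes transforming growth factor alpha, had 9.13, 8.23 and 8.18 in vector and 1.57, 3.25 and 2.48 in shVPS35 cells. Its vector samples were close together, and its shVPS35 samples spread 2.07-fold from lowest to highest, all far below the vector samples. The mean went from 8.51 ± 0.535 to 2.43 ± 0.841 (SD, n = 3 per group), or -1.50 ± 0.22 (SE) on the log2(value + 1) scale. shVPS35 sample 1, the highest for EPGN and AREG, was the lowest for TGFA.

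EGF itself had the lowest values. Its values were 0.280, 0.600 and 0.340 in vector and 0.200, 0.0900 and 0.0600 in shVPS35 cells. The groups did not overlap, but the gap between 0.280 and 0.200 was narrow beside the spread within each group. The mean went from 0.407 ± 0.170 to 0.117 ± 0.0737 (SD, n = 3 per group), or 28.7% of the vector level. Without shVPS35 sample 1 that share was 18.4%. EGF alone of the 6 failed a filter that asked for 3 samples at 1 or above, which 292 of the 426 listed genes passed.

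NRG1, which encodes neuregulin 1, is the only member whose product does not bind the EGF receptor itself. Its gene lies on chromosome 8 (GRCh38, 31639386 to 32767959, plus strand). It had 6.34, 5.09 and 8.04 in vector and 1.62, 2.55 and 2.12 in shVPS35 cells. All vector samples were above all shVPS35 samples, with a lowest vector value 2.00 times the highest shVPS35 value. The mean went from 6.49 ± 1.48 to 2.10 ± 0.465 (SD, n = 3 per group), or -1.27 ± 0.21 (SE) on the log2(value + 1) scale.

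**Figure D2:**
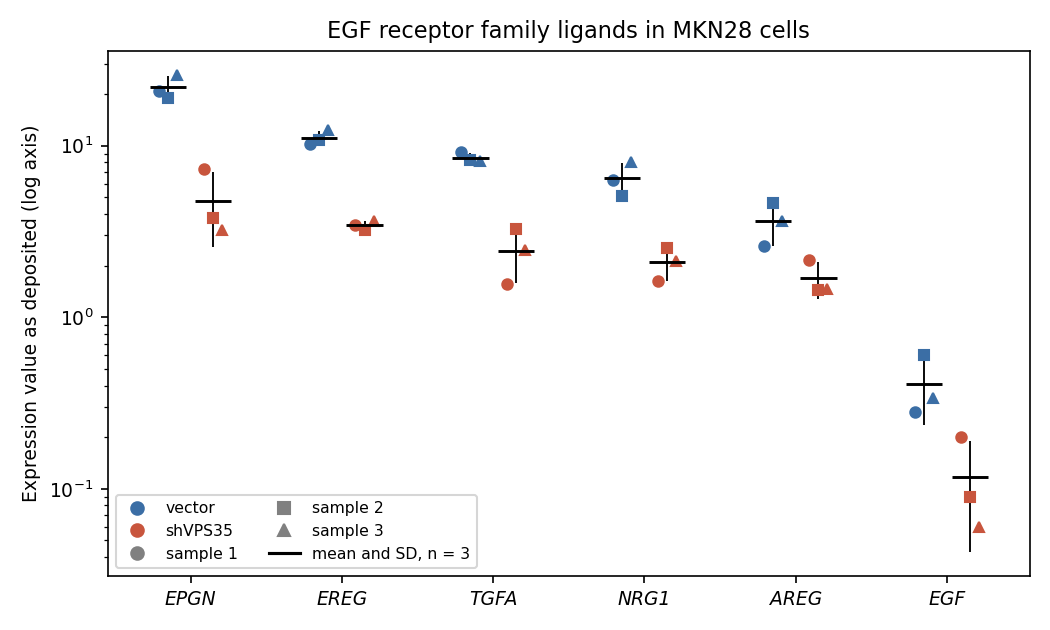
Expression values of the 6 ligands in each sample on a log axis, in order of vector mean, with vector in blue, shVPS35 in red, marker shapes for samples 1 to 3, and lines for the mean and SD of 3 samples. All vector samples lie above all shVPS35 samples in each gene, closest in AREG (2.60 against 2.15) and EGF (0.280 against 0.200).

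No shVPS35 sample was the lowest of its group for all ligands. Sample 1 was the highest of its group for EPGN, AREG and EGF and the lowest for TGFA and NRG1. Sample 2 was the highest for TGFA and NRG1, and sample 3 for EREG. Among vector samples, sample 3 was the highest for EPGN, EREG and NRG1, sample 2 for AREG and EGF, and sample 1 for TGFA. Sums over all listed genes were 5029 to 5130 in vector and 4696 to 5004 in shVPS35 samples. Without the RNA gene AL355075.4, which was at 393 to 414 in vector and 1348 to 1618 in shVPS35 samples, they were 4636 to 4716 and 3320 to 3385.

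The order of the ligands by level can be read if the values are per length of transcript, as the TPM and FPKM that RSEM writes are. The table's header names no unit. On that reading the order of group means was EPGN, EREG, TGFA, NRG1, AREG and EGF in both groups. In the vector samples no 2 neighbours in that order overlapped, although TGFA and NRG1 came close (8.18 as the lowest TGFA value and 8.04 as the highest NRG1 value). In the shVPS35 samples EPGN overlapped EREG, EREG overlapped TGFA, TGFA overlapped NRG1 and NRG1 overlapped AREG. Only EGF, at 0.200 or less, stayed apart from its neighbour AREG, at 1.45 or more.

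On the same reading, the sum of the 6 was 49.5, 48.3 and 58.5 in vector and 16.33, 14.35 and 12.97 in shVPS35 cells. The mean sum left was 27.9% of that in vector. EPGN made up 42.3%, 39.2% and 44.3% of the sum in vector and 44.9%, 26.5% and 24.7% in shVPS35 cells. The share of EPGN in shVPS35 sample 1 was slightly above that in all 3 vector samples, and in the other shVPS35 samples it was below them. EREG made up 21.4% ± 0.931 of the sum in vector and 23.9% ± 3.68 in shVPS35 samples (SD, n = 3 per group), which overlap.

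**Figure D3:**
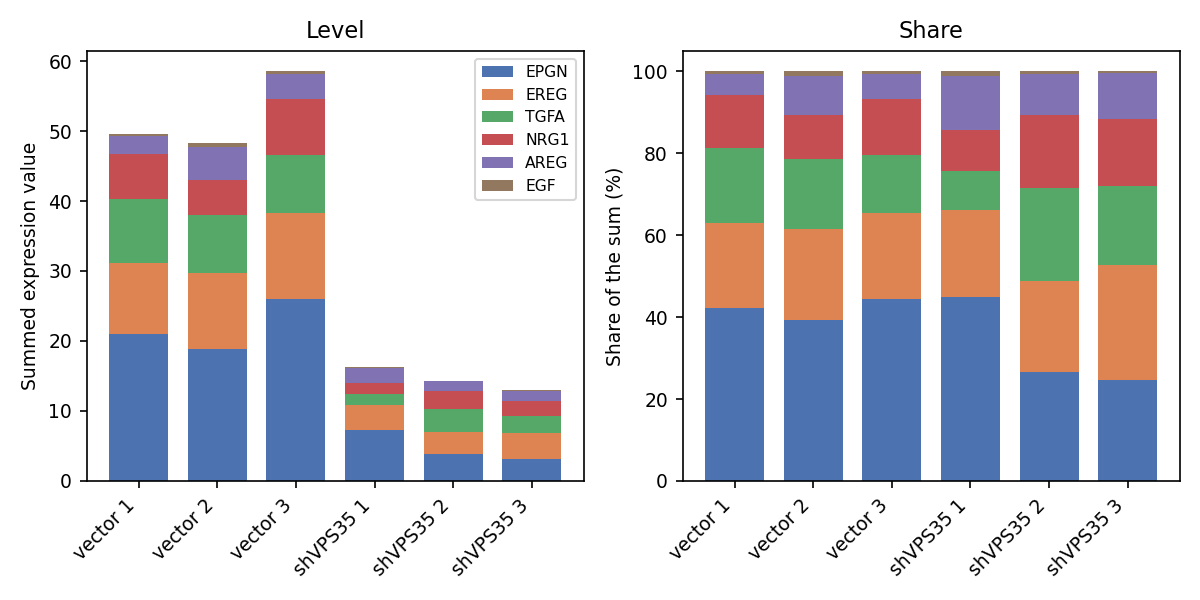
Summed expression value of the 6 ligands in each sample (left) and the share of each ligand in that sum (right, %), both stacked by gene. The sums are 48.3 to 58.5 in vector and 12.97 to 16.33 in shVPS35 samples, and EPGN holds 39.2% to 44.3% in vector samples but 44.9%, 26.5% and 24.7% in the shVPS35 samples.

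The fold in the authors' deposited table was close to the ratio of the group means for AREG and EREG, and less so for the other ligands. NRG1 has -1.12 as its log2 fold in the authors' deposited table, while the log2 ratio of its group means was -1.63, a gap of -0.51. Among the 151 listed genes with a higher group mean of 5 or more, the median size of this gap was 0.05, and CHML was the only gene with a larger one. EPGN had a gap of 0.34 in the other direction, with -2.53 in the authors' deposited table against -2.20 from the means. The gap was -0.14 for TGFA, -0.22 for EGF and 0.02 for both AREG and EREG. GENCODE 29 gives NRG1 22 transcripts of 543 to 5931 bases, against 9 of 222 to 1196 bases for EPGN and 3 of 598 to 4619 for EREG. The labels do not say which transcripts were counted, and whether transcript use bears on the gap was not tested.

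The values that chose the members ran close to the authors' limits for some of them. The absolute log2 fold changes of NRG1 and AREG, 1.12 for both in size, are the smallest of the 6 in the authors' deposited table, where the limit was 1. Adjusted p in the authors' deposited table was 6.39e-109 for EPGN, 2.74e-52 for EREG, 6.12e-28 for TGFA and 4.55e-06 for NRG1. It was 0.00806 for AREG and 0.0162 for EGF in the authors' deposited table, where the limit was 0.05. Ranks by p among the 16063 genes, recovered here from p and adjusted p in the authors' deposited table, were 31 for EPGN, 122 for EREG, 272 for TGFA, 3071 for AREG and 3388 for EGF. For NRG1 no whole rank was recovered.

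**Figure D4:**
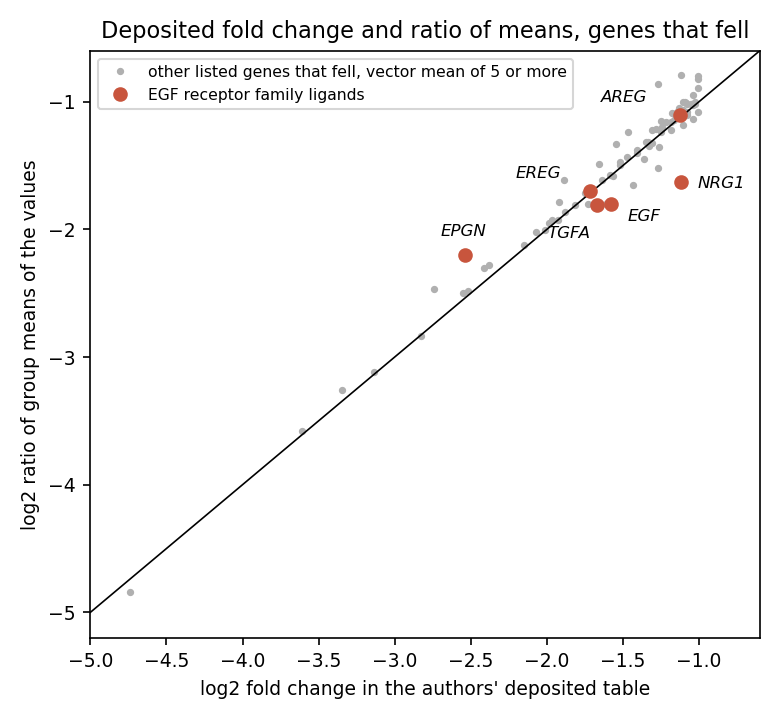
Log2 ratio of the group means against log2 fold change as the authors' deposited table gives it, for the 6 ligands (red) and the other listed genes that fell with a vector mean of 5 or more (grey), with the line of equal values. NRG1 lies 0.51 below the line and EPGN 0.34 above it, while AREG and EREG lie within 0.02 of it.

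Around the ligands, rows were looked up for the rest of the pathway from lists written with earlier results of these data known. None of the 4 ERBB receptors, 7 sheddases and their partners, 15 adaptors and members of the RAS to ERK core, or 10 receptor inhibitors had a row, and their levels are not analysed here. Of 19 genes induced by ERK or acting as feedback on it, 10 had a row and all 10 were lower, with a median of 31.1% of the vector level left, beside 35.9% over all listed genes that fell. Over all genes 2.65% were called, and 55.4% of the listed genes fell. DUSP5, a phosphatase that inactivates ERK in the nucleus, had 14.7, 13.8 and 14.2 in vector and 4.40, 4.77 and 4.43 in shVPS35 cells. PHLDA1, a pleckstrin homology domain gene induced by ERK, had 2.60, 3.05 and 2.53 in vector and 0.450, 0.500 and 0.440 in shVPS35 cells. Both kept their shVPS35 samples tightly together, unlike EPGN and TGFA. FOSL1, a partner of JUN in AP-1, had 28.7, 28.6 and 29.8 in vector and 14.4, 11.7 and 14.7 in shVPS35 cells, the smallest relative difference of the 10.

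**Figure D5:**
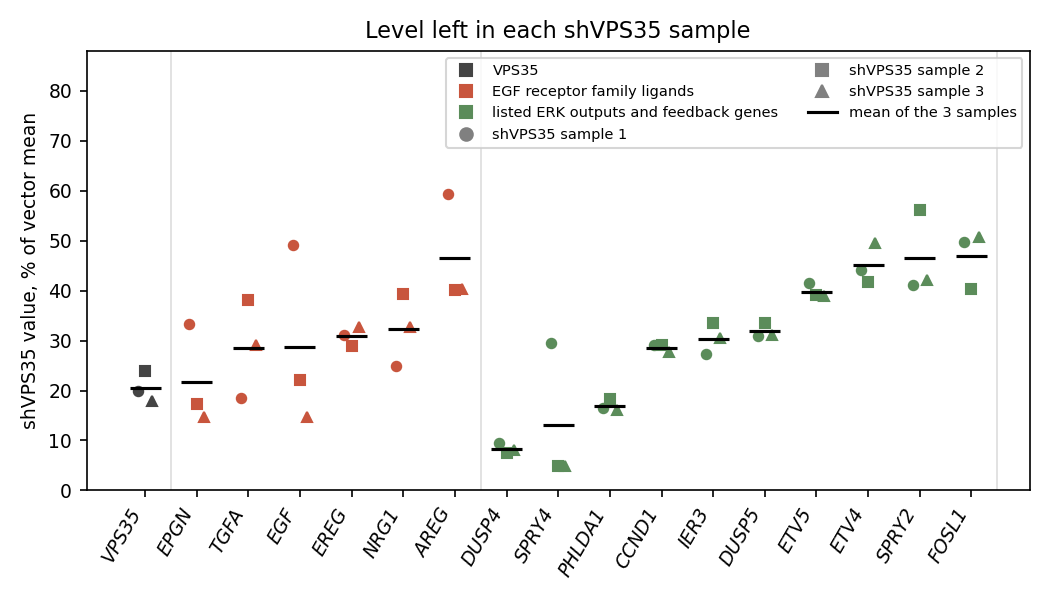
Value in each shVPS35 sample as a percent of the vector mean for VPS35, the 6 ligands and the 10 listed ERK outputs and feedback genes, with a line at the mean of the 3 samples. The ligands' means lie between 21.8% and 46.6%, and those of the ERK outputs between 8.37% (DUSP4) and 46.9% (FOSL1).

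The listed genes with the profile nearest to each ligand were found by distance between centred log2(value + 1) values over the 6 samples, among genes that passed the filter named above. EREG had the closest neighbours. They were SLCO1B3, an organic anion transporter gene of the liver, at a distance of 0.20, the lymphatic growth factor gene VEGFC at 0.24 and DUSP5 at 0.27. SLCO1B3 had 9.99, 10.1 and 11.0 in vector and 2.67, 2.84 and 3.43 in shVPS35 cells, close to EREG in every sample. Nearest to TGFA were NT5E, which encodes the ecto-nucleotidase CD73, at 0.35, IER3 at 0.42 and VEGFC at 0.42. In NT5E, as in TGFA, shVPS35 sample 1 was the lowest, with 4.89 against 7.77 and 7.40. The vector samples differed, since sample 1 was the highest for TGFA but the lowest for NT5E (18.25, 22.36 and 20.67).

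Nearest to NRG1 were PHLDB2 at 0.36, the basement membrane collagen gene COL4A6 at 0.41 and the integrin gene ITGA2 at 0.42. COL4A6 had 3.26, 2.58 and 4.21 in vector, in the same order as NRG1, and 0.670, 0.620 and 0.530 in shVPS35 cells, where sample 1 was the highest and not, as in NRG1, the lowest. Nearest to AREG were STXBP6, RSPH1 and ANKRD2, at 0.41, 0.41 and 0.42. EPGN had no near neighbour, since EBI3, a cytokine subunit gene, was the closest at 0.77, followed by the claudin gene CLDN1 at 0.83 and FAM83A at 0.84. Between ligands the smallest distance was 0.53, between EREG and NRG1, and EPGN was 1.07 or more from every other ligand. These distances are dominated by the group difference that put all of these genes in the table, so they describe likeness only.

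The label of the cells was compared with marker genes as far as rows allow. Over all genes tested, 2.65% were listed. Of 10 stomach markers GKN1, GKN2, MUC13 and PSCA had rows, and each was lower in shVPS35 cells, as the ligands were. Their summed value was 178 to 194 in vector and 75.6 to 82.6 in shVPS35 samples, most of it PSCA (means of 160 and 69.7). The 5 general epithelial markers had no row and are not analysed here. Of 9 markers of other cell types CD68, CDH5, DCN and LUM had rows, with a summed value of 58.0 to 61.3 in vector and 20.8 to 24.2 in shVPS35 samples, most of it CD68. DCN, a proteoglycan gene of fibroblasts, went the other way, with 1.0, 1.47 and 1.97 in vector and 2.98, 5.41 and 4.17 in shVPS35 cells. LUM, the other fibroblast marker with a row, had 0.690, 1.52 and 1.29 in vector and 0.360, 0.990 and 0.330 in shVPS35 cells. Its mean was lower in shVPS35 cells, opposite to DCN, and its groups overlapped. The sum of DCN and LUM was 1.69 to 3.26 in vector and 3.34 to 6.40 in shVPS35 samples. CD68 is also a protein of lysosomes and is not limited to macrophages. None of these 4 was at 0 in any sample, and their part in the ligand values was not tested.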

How the data were processed

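RNA from 3 vector and 3 shVPS35 samples was sequenced, and the submitters' processing notes name fastp, HISAT, RSEM and GRCh38.p13, without versions or roles. The authors' deposited table holds an expression signal per gene and sample with 2 decimals, whose header names no unit, for called genes only. The ratio, its log2 and the p-value and adjusted p-value are the authors', per the file headers, and their test is not stated there. Without read depth, no counting interval or floor is given. The 16063 genes tested were recovered as the smallest number that makes p times it over adjusted p whole (within 0.01) in 387 of 422 genes, a step tested on simulated data.

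Computed here were means, SDs, differences of mean log2(value + 1), which understate changes of low genes, and profile distances (Python 3.11.15, numpy 2.4.6, pandas 2.3.3). No test was run. The members and lists were chosen with earlier results of these data known. Named genes are the members, VPS35, listed genes of the pathway lists, listed genes within 1 Mb of a member, and the 3 nearest profiles per member passing the filter. CHML and AL355075.4 were named after their values were seen. Positions are from GENCODE 29, which matched 421 of 426 identifiers and has the same primary assembly as GRCh38.p13. Alternatives were other pseudocounts, scalings, a filter, and leaving out each sample.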

Additional observations from a re-analysis of the deposited data

How the results depend on the processing

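All 6 ligands stayed lower in shVPS35 cells under every alternative run, but most of these alternatives could not have reversed a direction. Where groups do not overlap, no pseudocount, left-out sample or replicate block can change the sign of a difference. The authors' log2 fold change helped to choose the members, so it is no separate check. Of the alternatives computed from the sample values, only the changes of scaling could have reversed a direction. Under scaling by the median ratio the log2 difference of AREG went from -0.77 to -0.20 and that of EGF from -0.33 to -0.18. The median log2 difference of the 6, -1.36 as reported, was -1.62 with a pseudocount of 0.1, -0.78 with a pseudocount of 5, and -1.62 from the log2 fold changes in the authors' deposited table. Scaling by the median ratio gave -0.70, raised the median of all listed genes from -0.34 to -0.09 (a shift of 0.26), and left 4 ligands whose groups did not overlap, with AREG and EGF overlapping. Its factors come only from called genes, more of which fell, and run from 0.745 in shVPS35 to 1.34 in vector samples. Scaling by the sum of listed genes gave -1.30. Without AL355075.4 in that sum, an alternative chosen after seeing the data, it gave -0.97, moved the median of all listed genes by 0.13 and also left 4 ligands apart. The 5 ligands past the filter alone gave -1.45. Leaving out each sample in turn gave -1.44 to -1.23. Groups that do not overlap stay apart when a sample is left out, so the count of 6 ligands apart could not change. Deviations of same-numbered samples correlated at -0.06, -0.09 and 0.03 over 292 genes, so no pairing by replicate number was seen. These values cannot show whether same-numbered samples were handled together, and the labels do not say. A replicate block leaves each log2 difference unchanged by construction, so the median was again -1.36, and only the SE could change. The SE rose for AREG, EGF, EPGN (0.33 to 0.37), NRG1 and TGFA, and fell for EREG (0.09 to 0.06). Of the 15 nearest-profile pairs, 13 were found with no filter and 6 with a pseudocount of 0.1. Depth is unknown, so how far it limits EGF, the lowest ligand, cannot be given.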
